A study of Arabidopsis thaliana with 21 samples.

Results

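PLT1, PLT2, PLT3, PLT5 and PLT7 (PLETHORA genes), BBM (BABY BOOM) and ANT (AINTEGUMENTA) are 7 genes of *Arabidopsis thaliana*, of 33056 on the nuclear chromosomes of the annotation, and were taken as a named set of transcription factor genes rather than by any measured value. They encode related proteins with AP2 DNA-binding domains. Every region called as carrying a histone mark was assigned to them when it overlapped the annotated gene or the 2 kb upstream by at least 1 bp. This gave 17 to 24 regions for the 7 genes among the 23143 to 27688 nuclear regions of each H2AK121ub table, and 8 to 10 among the 11471 to 13642 of each H3K27me3 table.

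PLT1 and PLT2 act redundantly in positioning and maintaining the root stem cell niche, and PLT3, PLT5 and PLT7 act in lateral root formation, leaf positioning and regeneration. BBM is known for inducing somatic embryos when it is expressed ectopically, and ANT promotes the growth of lateral organs and ovule integuments. Polycomb repressive complex 1 (PRC1) adds ubiquitin to histone H2A (H2AK121ub), and Polycomb repressive complex 2 (PRC2) trimethylates histone H3 (H3K27me3); both marks are associated with repression of developmental genes outside the tissues in which they act.

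Both marks were measured by chromatin immunoprecipitation and sequencing in whole seedlings of the Col-0 ecotype at 7 days after germination, with chromatin from 150 seedlings. Wild type (WT) was compared, for both marks, with the atbmi1a/b/c triple mutant (atbmi1abc), which lacks the AtBMI1 RING-finger subunits of PRC1, and with the clf28/swn7 double mutant (clfswn), which lacks the PRC2 methyltransferases CURLY LEAF and SWINGER. The lhp1 mutant, which lacks a chromodomain protein that binds H3K27me3, was compared for H2AK121ub alone. Each group held 2 replicates, and each deposited table paired a mutant library with the WT library that the labels name as its control. The 6 WT samples labelled for H2AK121ub are 2 libraries, since the WT regions (21987 in replicate 1, 22314 in replicate 2) and their read numbers were identical whichever mutant they were set against. These 3 comparisons therefore share their controls. The WT libraries of the H3K27me3 comparisons had no region in common in that sense and were treated as separate. Reads summed over the regions were 2743315 to 9405576 per H2AK121ub library of a table and 1384330 to 9599480 per H3K27me3 library. Which of the columns is the mutant rests on the order in the table's name, which the shared WT values bear out for H2AK121ub. For H3K27me3, the columns so taken as clfswn had 1384330 and 2094833 reads over the regions against 9599480 and 6315162 in WT. Whole seedlings mix root tips, where several of these genes act, with many other tissues, so a lower level in every cell and a loss in a part of the cells cannot be told apart.

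The H2AK121ub regions of the 7 genes held recurring short motifs, and stretches with such matches are shown from the regions whose levels carry the results. They were read from RefSeq's TAIR10.1 assembly, whose nuclear chromosomes have the coordinates of the TAIR10 build of the files, on the strand of the gene and 5′ to 3′. Capitals mark the RY element CATGCA, the telobox AAACCCTA and the GAGA repeat GAGAGA, in either strand and with overlapping matches counted separately. Positions are counted from 0 at the first annotated base of the gene. The RY matches shown for BBM, at positions 761 and 763, lay inside a called region in replicate 1 and between called regions in replicate 2.
PLT1, region upstream of the gene, chr3:7299134-7299363: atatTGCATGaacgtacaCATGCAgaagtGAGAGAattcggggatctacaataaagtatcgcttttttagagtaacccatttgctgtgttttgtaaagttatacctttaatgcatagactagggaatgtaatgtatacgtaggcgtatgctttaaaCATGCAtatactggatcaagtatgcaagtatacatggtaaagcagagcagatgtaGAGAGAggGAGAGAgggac
PLT2, region upstream of the gene, chr1:18976476-18976575: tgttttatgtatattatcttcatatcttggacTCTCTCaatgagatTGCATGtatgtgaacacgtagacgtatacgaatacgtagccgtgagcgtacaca
PLT3, region at the start, chr5:3315281-3315400: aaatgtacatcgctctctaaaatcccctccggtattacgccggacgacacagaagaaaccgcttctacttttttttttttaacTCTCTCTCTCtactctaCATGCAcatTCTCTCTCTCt
PLT5, region far upstream, chr5:23258564-23258663: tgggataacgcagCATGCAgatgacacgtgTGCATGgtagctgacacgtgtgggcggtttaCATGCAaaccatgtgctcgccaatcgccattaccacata
PLT5, region at the start, in the first intron, chr5:23256104-23256203: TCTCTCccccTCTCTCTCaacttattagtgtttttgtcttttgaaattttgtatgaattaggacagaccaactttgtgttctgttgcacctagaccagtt
PLT7, region at the start, coding sequence, chr5:26186583-26186742: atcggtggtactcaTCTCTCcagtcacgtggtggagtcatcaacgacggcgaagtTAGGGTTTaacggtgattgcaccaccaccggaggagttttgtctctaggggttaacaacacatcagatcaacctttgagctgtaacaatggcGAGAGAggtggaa
PLT7, region at the end, intron, chr5:26187903-26188052: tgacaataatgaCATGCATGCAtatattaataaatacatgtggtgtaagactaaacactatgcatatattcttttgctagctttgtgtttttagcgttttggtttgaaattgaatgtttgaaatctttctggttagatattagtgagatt
BBM, region at the start, second exon with 2 bases of intron, chr5:5744909-5745008: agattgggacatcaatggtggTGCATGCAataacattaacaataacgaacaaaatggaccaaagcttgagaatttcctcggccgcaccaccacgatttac
ANT, region at the end, last exon, chr4:17742004-17742153: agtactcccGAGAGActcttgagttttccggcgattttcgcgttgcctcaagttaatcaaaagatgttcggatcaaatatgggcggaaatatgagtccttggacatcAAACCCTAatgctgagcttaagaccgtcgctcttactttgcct

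Over the 16 WT H2AK121ub regions of the 7 genes in replicate 1, the GAGA repeat occurred 60 times, or 4.10 per kb, against 2.30 per kb over all 21987 regions. The RY element occurred 22 times, or 1.50 per kb against 0.839, and the telobox 6 times, or 0.410 per kb against 0.179. The start region of PLT5 alone held 22 of the GAGA matches and that of PLT3 15. In windows of 300 bases around the gene start (250 before, 50 after), the GAGA repeat was in 6 of the 7 genes against 28.8% of 33054 genes, the RY element in PLT3 and PLT5 against 10.2%, and the telobox in PLT1 alone against 6.16%. These are matches of letters in the reference and no test was run on them.

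In WT, all 7 genes carried an H2AK121ub region in both replicates, and 5 of them carried it inside the gene. PLT3 (AT5G10510, chr5:3315401-3320323) had 1244 and 1356 reads (replicates 1 and 2) in 1 region from position -216 to 1829 of replicate 1, or 608 reads per kb in replicate 1, a density above 87.5% of the WT regions of that table. PLT5 (AT5G57390, chr5:23252989-23256703, reverse strand) had 1099 and 1115 reads at its start, 616 reads per kb in replicate 1, and a further region of 529 and 536 reads far upstream, from position -2203 to -1247 in replicate 1. ANT (AT4G37750, chr4:17739514-17742407) had 747 and 809 reads at its start and 239 and 280 at its end. BBM (AT5G17430, chr5:5742393-5745748, reverse strand) had 450 reads in 1 region over its first exons in replicate 1, which replicate 2 split into regions of 300 and 120 reads.

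PLT7 (AT5G65510, chr5:26185593-26189571) carried 2 separated H2AK121ub regions within the gene, 611 and 769 reads over exons 2 to 3 (2 to 4 in replicate 2) and 583 and 657 reads over exons 5 to 9. PLT1 (AT3G20840, chr3:7300444-7303693) had no WT H2AK121ub region in the gene, and 332 and 343 reads in 1 region upstream, from position -1805 to -846 in replicate 1. PLT2 (AT1G51190, chr1:18977176-18980618) was the most weakly marked, with 70 and 96 reads in 1 upstream region of 303 and 367 bp, or 231 reads per kb in replicate 1, a density above only 4.52% of the WT regions. The root stem cell genes PLT1 and PLT2 were thus the members without a called WT H2AK121ub region in the gene itself. WT reads were not absent there. In spans inside the gene that were called only in a mutant, WT had 78.9 to 261 reads per kb at PLT2. At PLT1 such spans had 116 to 343 WT reads per kb.

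For H3K27me3 in WT, PLT2 and PLT1 had the highest densities of the 7 genes in each of the 4 libraries. PLT1 lay inside 1 domain of 11775 to 13317 bp and PLT2 inside 1 of 6368 to 9233 bp, which covered 91.3 to 97.7% of the PLT2 gene and all of PLT1 in the 4 WT libraries. Their densities were 421 to 824 reads per kb for PLT1 and 494 to 994 for PLT2. BBM was covered over 92.4 to 95.7% of its length by a domain that stopped short of the end of the gene. This domain also overlapped the gene or the 2 kb upstream of the neighbour IRX3, a cellulose synthase subunit gene. ANT was covered over its full length by a domain that likewise overlapped the gene or the 2 kb upstream of SQE3, a squalene epoxidase gene. PLT5 was covered over 68.5 to 100% and PLT3 over only 36.7 to 45.4%, its first exons. PLT7 had 529 and 386 reads in a region over its start in the WT libraries of the clfswn comparison, 102 reads in a region of 402 bp in replicate 1 of the atbmi1abc comparison, and no region in replicate 2 of that comparison. H3K27me3 was thus called in all 4 WT libraries at 6 of the 7 genes. In the WT libraries of the clfswn comparison, H3K27me3 regions covered 94.4 to 100% of the H2AK121ub regions inside the windows of 6 genes, against 38.1 and 40.5% at PLT7, whose end region lay outside H3K27me3. Reads over domains that reach beyond a gene are counted whole. The domains of PLT1 (NEK5 and AT3G20850), BBM, ANT and PLT3 (MIR8184) also overlapped the gene or the 2 kb upstream of these neighbours. Their values are therefore not of the named gene alone. The PLT7 regions lay inside PLT7 itself, where those of the clfswn controls also overlapped the gene or the 2 kb upstream of AT5G65500.

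**Figure D1:**
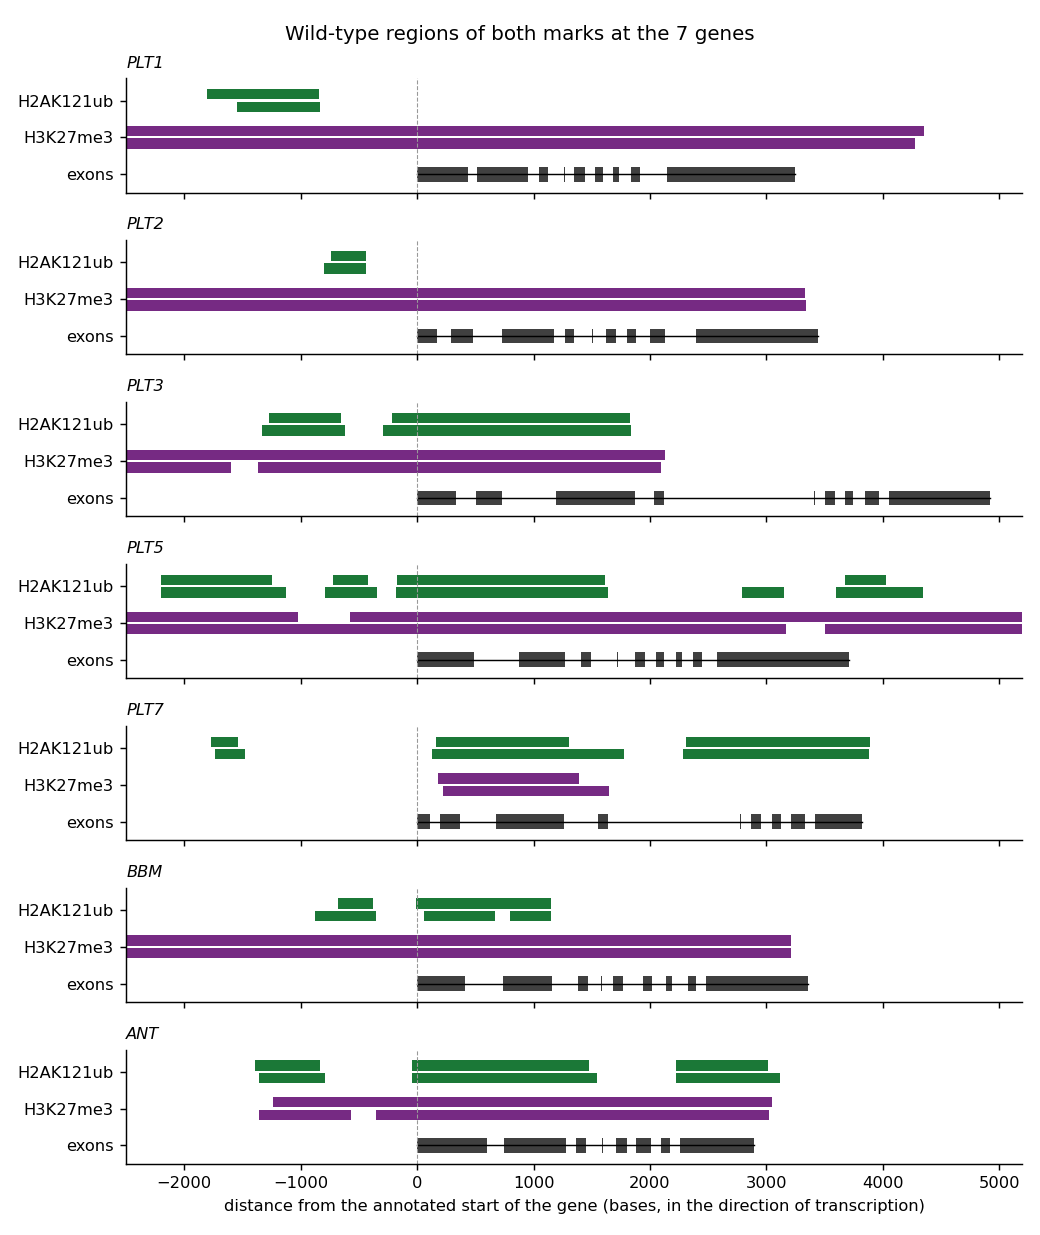
Regions called in WT at the 7 genes, plotted by distance from the annotated start in bases (x axis, direction of transcription), with H2AK121ub in green, H3K27me3 of the clfswn controls in purple (upper bar replicate 1, lower bar replicate 2, clipped at the panel edge) and exons in grey. PLT1 and PLT2 have called H2AK121ub regions only upstream and H3K27me3 regions throughout, and the H2AK121ub region at the end of PLT7 has no H3K27me3 region over it.

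The first comparison asked how H2AK121ub at these genes changed without AtBMI1 function. Levels are mutant reads on the scale of the authors' rescaling as a percentage of WT reads, summed over the regions of a gene. A gene is called reduced below 80% and increased above 120% of WT at an adjusted p under 0.05 in edgeR's quasi-likelihood test with the replicate as a block, adjusted over all genes tested. H2AK121ub fell at 4 of the 7 genes, PLT1, PLT3, PLT5 and PLT7, and rose at none, against 63.5% of 22199 genes reduced and 0.41% increased. The median of all genes was -0.97 on the log2 scale, and the median of the 7 was -1.08. A share of 4 in 7 is near the background.

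PLT3 fell furthest: its start region had 260 reads in atbmi1abc against 1244 in WT in replicate 1, and 321 against 1356 in replicate 2. Over all its regions the level was 23.8 and 25.7% of WT, a log2 change of -2.01 ± 0.08 (SD, n = 2; adjusted p = 3.21e-07). PLT5 stood beside it, with 288 reads against 1099 and 324 against 1115 at the start and 77 against 529 and 105 against 536 in the far upstream region. Its gene level was 25.3 and 27.9% of WT (log2 -1.91 ± 0.10, SD, n = 2; adjusted p = 5.23e-07). Only 4.13% of all genes had a lower fitted change than PLT3 and 5.22% a lower one than PLT5.

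At PLT1 the upstream region had 93 reads against 332 and 123 against 343. The gene level was 39.5 and 37.9% of WT, with a log2 change of -1.37 ± 0.04 (SD, n = 2; adjusted p = 0.00090). PLT7 had a level of 43.9 and 51.2% (log2 -1.08 ± 0.16, SD, n = 2; adjusted p = 0.00406), which was close to the median of all genes. Its regions were unequal, with 305 reads against 611 and 449 against 769 at the start, and 165 against 583 and 190 against 657 at the end. The log2 ratio of the start region exceeded that of the end region by 0.82 and 1.03, with an SD of 0.14 between replicates. The start region was called in both libraries and the end region in WT alone. A lower value at the end is thus in part fixed by the calling. Fitted by region, both passed the test, the end with a log2 change of -1.69 and the start with -0.76 (adjusted p = 0.031), against 64.0% of 20670 matched regions reduced and 0.668% increased. The small region upstream of PLT7, with 25 reads against 63 and 83 against 75, did not pass (adjusted p = 0.37).

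BBM and ANT did not pass the test. BBM was at 64.4 and 78.0% of WT (adjusted p = 0.20), and ANT at 60.7 and 83.5% (adjusted p = 0.18). Their upstream regions passed it when fitted by region, that of BBM with 34 reads against 82 and 65 against 109 (adjusted p = 0.046) and that of ANT with 66 against 141 and 61 against 151 (adjusted p = 0.0071). PLT2, the gene with the least H2AK121ub in WT, stood at 81.3% in replicate 1 and 134% in replicate 2 (adjusted p = 0.85), so its replicates lay on either side of WT. Its upstream region had 36 reads against 70 and 61 against 96, while regions inside the gene called only in the mutant had 36 reads against 27 and 92 against 42 over exon 2, 44 against 60 and 111 against 67 from exon 3 on, and 74 against 57 over exon 9 in replicate 2 alone. Because such regions were called in the mutant library alone, a higher mutant value there is in part fixed by the calling, as is a lower one in regions called in WT alone.

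The second comparison asked whether H2AK121ub depended on PRC2. In clfswn the 7 genes went in different directions, with 2 reduced, 3 increased and 2 not passing the test, against 28.0% of 23772 genes reduced and 10.4% increased. PLT5 fell most, with 349 reads against 1099 and 351 against 1115 at the start, a gene level of 31.8 and 38.3% (log2 -1.52 ± 0.19, SD, n = 2; adjusted p = 7.97e-11). Only 0.442% of all genes had a lower fitted change. All 4 of the PLT5 regions matched between replicates were reduced, the far upstream one with 143 reads against 529 and 234 against 536, in a fit over 24038 matched regions of which 27.4% were reduced and 12.0% increased. PLT3 had 671 reads against 1244 and 739 against 1356 at the start, and a gene level of 56.6 and 55.9% (log2 -0.83 ± 0.01, SD, n = 2; adjusted p = 6.13e-08). The small p-values rest largely on the replicate block. In the edgeR test without it PLT5 and PLT3 were still called, with adjusted p = 0.0242 for PLT5 and 0.0236 for PLT3.

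BBM rose. Its start region had 794 reads against 450 in replicate 1, and the 2 regions of replicate 2 had 582 against 300 and 210 against 120. The gene level was 169 and 180% of WT (log2 0.80 ± 0.07, SD, n = 2; adjusted p = 4.07e-07), and 98.9% of all genes had a lower fitted change. In the edgeR test without the replicate block BBM was still called, with adjusted p = 0.030. The neighbouring upstream region, with 106 reads against 82 and 137 against 109, did not pass the test by itself (adjusted p = 0.068).

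PLT2 and PLT1 were also called increased, at 152 and 134% of WT (log2 0.51 ± 0.12, SD, n = 2; adjusted p = 0.00048) and at 127 and 115% (log2 0.27 ± 0.10, SD, n = 2; adjusted p = 0.015). Both had regions inside the gene, where WT had none. Over exons 1 to 2 of PLT2 there were 128 reads against 44 and 64 against 39 (region adjusted p = 2.23e-06). Over exons 2 to 3 of PLT1 there were 159 reads against 112 and 135 against 84 (region adjusted p = 0.0011). Regions over exon 3 of PLT2 (region adjusted p = 0.0076) and exon 1 of PLT1 (0.034) also passed. Those near the end of the genes did not. There PLT2 had 182 reads against 167 and 214 against 165 (region adjusted p = 0.099). PLT1 had 122 against 105 and 108 against 129 (region adjusted p = 0.94). These regions were called in the mutant libraries alone. Their higher mutant values, their p-values and the calls of both genes are therefore in part fixed by the calling. The regions called in both libraries, upstream of the genes, did not pass the test, with 93 reads against 70 and 110 against 96 at PLT2 (adjusted p = 0.16) and 377 against 332 and 373 against 343 at PLT1 (adjusted p = 0.16). Without the replicate block neither gene was called, with adjusted p = 0.074 for PLT2 and 0.22 for PLT1, and DESeq2 did not call PLT1 (adjusted p = 0.24).

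At PLT7 the sum over the regions hid opposite changes. Both libraries of replicate 1 had 1257 reads over its regions, replicate 2 had 1378 in the mutant against 1501 in WT, and the gene level was 102 and 94.6% of WT (adjusted p = 0.82). Its start region rose, with 894 reads against 611 and 973 against 769 (log2 change 0.48, region adjusted p = 1.13e-06), and so did the small region upstream, with 92 against 63 and 114 against 75 (region adjusted p = 0.0081). Its end region fell, with 271 against 583 and 291 against 657 (log2 change -1.10, region adjusted p = 3.63e-22). The log2 ratio of the start region exceeded that of the end region by 1.64 and 1.52, with an SD of 0.09 between replicates. In the WT libraries of the clfswn comparison, the start region overlapped an H3K27me3 region, and the upstream and end regions did not. In those of the atbmi1abc comparison, H3K27me3 was called over 402 bp of the start region in replicate 1 and not at all in replicate 2. ANT as a sum over its regions was close to WT, with 1127 reads in both libraries of replicate 1 and 1202 against 1240 in replicate 2, a level of 103 and 99.8% (adjusted p = 0.87). Its upstream region was lower, with 91 against 141 and 134 against 151, but did not pass the test (region adjusted p = 0.086).

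**Figure D2:**
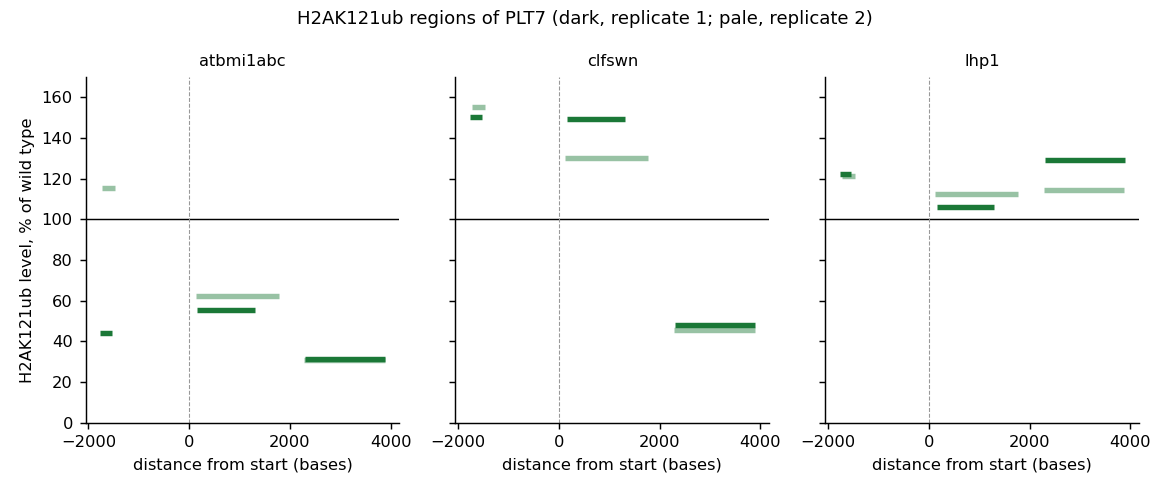
H2AK121ub level of each region of PLT7 as a percentage of WT (y axis) over its extent in bases from the start of the gene (x axis), in the 3 mutants, dark for replicate 1 and pale for replicate 2. In clfswn the start region lies at 150 and 130% and the end region at 47.9 and 45.7%, while in atbmi1abc both lie below 100% and in lhp1 both above.

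The third comparison asked the same of LHP1. In lhp1 the levels of the 7 genes lay between 86.6 and 155% of WT, and 1 gene, PLT2, was called increased and none reduced, against 10.2% of 22631 genes increased and 0.817% reduced. PLT2 had 119 reads against 70 and 141 against 96 in its single upstream region (log2 0.57 ± 0.08, SD, n = 2; adjusted p = 0.029). That call was lost with reads scaled by library totals (adjusted p = 0.18) and without the replicate block (adjusted p = 0.68). PLT1 was at 137% in replicate 1 and 86.6% in replicate 2, on either side of WT. PLT3, PLT5, PLT7, BBM and ANT were at 102 to 122% of WT in the 10 values of both replicates, with adjusted p of 0.22 to 0.73. At PLT5, the gene with the largest loss in clfswn, the start region had 1387 reads against 1099 and 1133 against 1115. These 3 comparisons use the same WT libraries, so their values are set side by side and no relation between them was tested.

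**Figure D3:**
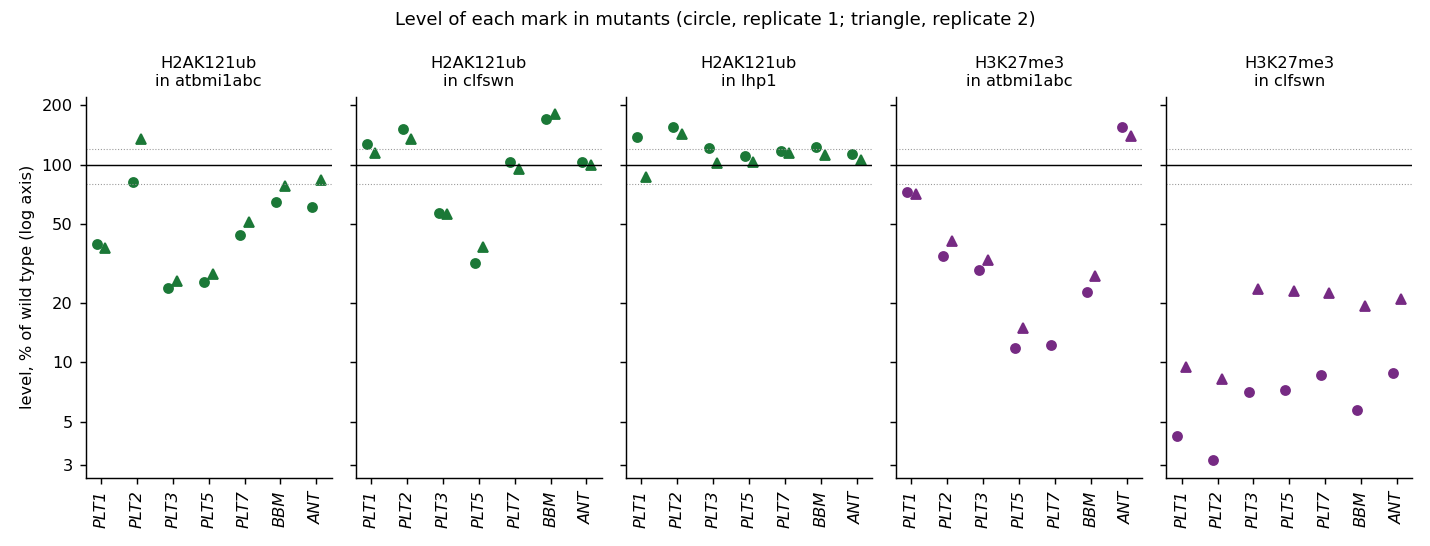
Level of each mark at each gene as a percentage of WT on a log axis (y axis), for each gene (x axis) and comparison (panel), with circles for replicate 1 and triangles for replicate 2, a line at 100% and dotted lines at 80 and 120%. ANT is the only gene above 120% for H3K27me3 in atbmi1abc, and all genes lie at or below 23.3% for H3K27me3 in clfswn.

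For H3K27me3 the same mutants were compared. In atbmi1abc, 5 of the 6 genes that could be fitted were reduced and 1 was increased, against 42.2% of 12824 genes reduced and 23.5% increased. PLT5 lost most, with 135 reads against 1119 and 122 against 865 over exon 1 and the following exons and 52 against 899 and 77 against 716 in the domain upstream. Its gene level was 11.7 and 14.9% of WT (log2 -2.92 ± 0.24, SD, n = 2; adjusted p = 3.36e-110), and 1.95% of all genes had a lower fitted change. BBM had 611 reads against 2778 and 592 against 2193, a level of 22.5 and 27.3% (log2 -2.01 ± 0.19, SD, n = 2; adjusted p = 7.64e-68). PLT3 stood at 29.2 and 32.7% (adjusted p = 1.20e-44). In replicate 1, where its domain was split, the part over the start had 120 reads against 986 and the part further upstream 462 against 1044.

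The root stem cell genes PLT1 and PLT2 kept more of the mark than PLT5, BBM and PLT3, but PLT2 only slightly more than PLT3. Of all genes, 14.7% had a lower fitted change than PLT2 and 35.9% a lower one than PLT1. PLT2 had 1951 reads against 5911 and 1796 against 4471, or 34.3 and 41.1% of WT (log2 -1.41 ± 0.18, SD, n = 2; adjusted p = 1.38e-36). PLT1 had 4407 reads against 6407 and 3851 against 5613, or 72.3 and 70.9% (log2 -0.48 ± 0.02, SD, n = 2; adjusted p = 7.43e-05). With reads scaled by library totals, PLT1 was no longer below the 80% limit (log2 change -0.28). ANT went the other way, with 1975 reads against 1332 and 1501 against 1096, or 154 and 140% of WT (log2 0.55 ± 0.10, SD, n = 2; adjusted p = 1.03e-06). PLT7 had a region in replicate 1 alone, with 12 reads against 102, and was not fitted. The order PLT5, BBM, PLT3, PLT2, PLT1, ANT was the same in both replicates.

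In clfswn, H3K27me3 was at 3.18 to 23.3% of WT at every one of the 7 genes in both replicates, against 58.0% of 13832 genes called reduced and 9.75% increased. PLT2 had 195 reads against 6332 and 312 against 4110, or 3.18 and 8.21% of WT (log2 -4.29 ± 0.97, SD, n = 2; adjusted p = 0.037). PLT1 had 436 reads against 10661 and 589 against 6991, or 4.23 and 9.45% (log2 -3.98 ± 0.82, SD, n = 2; adjusted p = 0.037). BBM had 233 against 4180 and 469 against 2695, or 5.75 and 19.3% (adjusted p = 0.041). PLT3, PLT5, PLT7 and ANT had levels of 7.08 to 8.84% in replicate 1 and 20.9 to 23.3% in replicate 2. The 2 replicates differed by more than 2-fold in this loss at all 7 genes, and the adjusted p ran only from 0.037 to 0.051. PLT5, at 0.051, was the 1 gene not called, and it was called by DESeq2 (adjusted p = 2.70e-05). Its domain in this comparison also overlapped the gene or the 2 kb upstream of VIN3, a vernalization gene next to it. The median change of all genes was -2.88, close to the fitted changes of -2.86 to -2.96 at PLT3, PLT5, PLT7 and ANT. PLT1 and PLT2 lay further down, with 4.55 and 0.962% of all genes lower.

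The scale of the levels bears on these values. The study reports that atbmi1abc libraries gave less DNA and had reduced mappability, and holds that this likely understated the H2AK121ub loss after normalization. The authors' rescaling shifted the log2 ratio of reads by only -0.67 to 0.32 in any region, and the tables from which the authors chose the regions for it held 75 and 144 common regions for H3K27me3 in clfswn against 6238 to 19618 in the others. Scaling by each library's total over the regions moved the median of all genes from -0.97 to 0.05 for H2AK121ub in atbmi1abc, and from -2.88 to -0.70 for H3K27me3 in clfswn. On that scale, H2AK121ub in atbmi1abc was still reduced at PLT3 (log2 change -1.01) and PLT5 (-0.90). PLT1 (-0.35) and PLT7 (-0.07) were then not called. BBM (0.52), ANT (0.52) and PLT2 (1.12) were called increased. Of all genes, 21.1% were reduced and 26.0% increased on that scale. PLT3 and PLT5 were the lowest and PLT2 the highest of the 7 on both scales, whereas the directions of BBM and ANT depended on the scale.

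**Figure D4:**
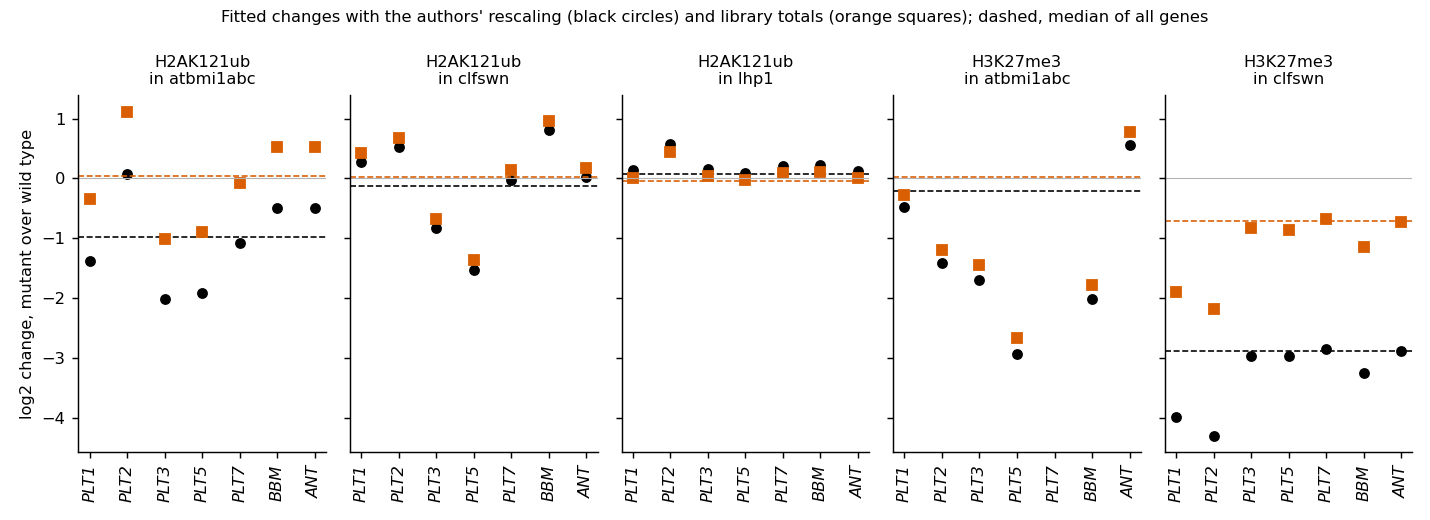
Fitted log2 change of each gene (y axis) in each comparison (panel), with black circles for the authors' rescaling and orange squares for scaling by library totals, and dashed lines at the median of all genes on each scale. In atbmi1abc the H2AK121ub values move up together, PLT3 from -2.02 to -1.01 and ANT from -0.49 to 0.52.

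Other genes of the AP2 family were described beside the 7. For H3K27me3 in atbmi1abc, 8 of the 11 listed genes had regions, of which 4 rose and 2 fell, against 23.5 and 42.2% of all genes. The floral repressor genes TOE2 (log2 change 1.95) and SMZ (1.24) rose. RAP2.7, also known as TOE1, fell (-1.25), and so did AT1G72570 (-1.19), a close relative of ANT. The median of the listed genes was 0.50 against -0.21 for all genes and -1.56 for the 6 members. For H2AK121ub in clfswn 4 of 11 fell, among them AP2 (-1.01), SNZ (-0.68) and AT2G41710 (-0.58), and SMZ rose (0.39), against 28.0% of all genes reduced and 10.4% increased. In lhp1 1 of 11 rose, RAP2.7 (0.54), against 10.2% of all genes. H2AK121ub in atbmi1abc fell at 9 of 11, against 63.5% of all genes, led by SNZ (-1.43), SMZ (-1.42), AP2 (-1.42) and ADAP (-1.27). With reads scaled by library totals, 3 were reduced and 2 increased, against 21.1 and 26.0% of all genes. On that scale WRI1 and WRI4 turned to slightly positive values. H3K27me3 in clfswn fell at 4 of the 6 with regions, against 58.0% of all genes, namely AT1G72570, WRI1, RAP2.7 and SNZ. With reads scaled by library totals 2 fell, against 55.7% of all genes. With TMM factors RAP2.7 (0.17) and SNZ (0.35) turned positive.

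Among 13 genes that act with or below the PLETHORA, BBM and ANT proteins, H3K27me3 in atbmi1abc fell at 9 of the 10 with regions, against 42.2% of all genes, with none rising. The lowest were the embryo regulators ABI3 (log2 change -3.59) and FUS3 (-3.28) and the auxin synthesis genes YUC4 (-2.31) and YUC1 (-1.95). The median of the list was -1.16. In clfswn, H2AK121ub fell at 4 of 13 and rose at 3, against 28.0 and 10.4% of all genes. The boundary gene CUC1 (-0.78) and the embryo gene AGL15 (-0.71) were among those that fell, and the embryo regulator LEC2 (0.85) and the boundary gene CUC2 (0.82) among those that rose. In lhp1, CUC2 (0.88), FUS3 (0.50) and ABI3 (0.39) rose, 3 of 13 against 10.2% of all genes. In atbmi1abc, H2AK121ub fell at 11 of 13, against 63.5% of all genes, led by AGL15 (-2.58) and the cell cycle gene CYCD3;1 (-2.04). With reads scaled by library totals, 6 were reduced and 2 increased, against 21.1 and 26.0% of all genes. On that scale MP was among the genes that turned to slightly positive values. H3K27me3 in clfswn fell at 7 of the 12 with regions, near the 58.0% of all genes, CUC2 (-4.51) most. The lists were drawn up with results of these data known, so the counts are a description.

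For the 6 genes with values in all comparisons, the gene with the closest pattern was found among the 9235 genes with all values, as the smallest root-mean-square difference over the 10 log2 ratios (5 comparisons, 2 replicates each). It was MYB1 for PLT1 (0.18), AT1G26255 for PLT2 (0.21), AT4G30060 for PLT3 (0.19), the long non-coding RNA gene AT4G04905 for PLT5 (0.37), the long non-coding RNA gene AT1G05397 for BBM (0.28) and the microRNA gene MIR869 for ANT (0.13). Among the 7, PLT3 and PLT5 were closest to each other (0.64), as were PLT2 and BBM (0.64), but PLT5 was the 1249th closest gene to PLT3 and PLT3 the 170th closest to PLT5. None of the 6 had another of the 7 as its closest gene.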

How the data were processed

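The authors aligned reads with Bowtie to TAIR10, called peaks with MACS2 against a common input and deposited 1 table per mutant, mark and replicate. Each table holds counts of reads per region for both libraries, and, from the authors' comparison, a log2 ratio rescaled by a line fitted over selected common regions of little change, in atbmi1abc only those at genes without differential expression (a variant of MAnorm), a mean log2 level and a −log10 p-value. The deposited counts were used as they are. The deposited log2 ratios served only to recover the rescaling line of each table (largest residual 2.7e-14), and the authors' ratios and p-values were otherwise not used. Input DNA was not analysed here.

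Common regions, listed with both limits, were used once, with the WT limits. Regions were assigned to genes of TAIR10.1 (nuclear chromosomes as in TAIR10; 1 region ended past a chromosome end) and reads were summed per gene. Genes with regions in both replicates were tested with edgeR 4.0.16 (R 4.3.3), glmQLFit and glmQLFTest, with the replicate as a block, the recovered rescaling as an offset and Benjamini-Hochberg adjustment over all genes. Each region of 1 table that overlapped a region of the other replicate best in both directions was fitted likewise. The pairing comes from the labels, which name the control of each mutant library; the replicate differences of mutant and WT correlated over genes at 0.56 to 0.86, with region limits that each table sets for both. The study describes the replicates as independent biological ones; for H2AK121ub the WT pair is the same in all comparisons. The test was also run on simulated counts with 200 changed genes. These had the same fixed spread for all genes and comparisons, so they do not show how the test performs on the real spread. Reads without molecular identifiers are not independent molecules.

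All 7 genes were named, list genes only where called (at most the 4 with the largest change per list and comparison), and the closest gene by pattern. Neighbours were named where a region also overlapped their gene or the 2 kb upstream of it. The members, lists and tests were chosen with earlier results of these data known. DESeq2 1.42.0, other scalings, windows, limits, filters and thresholds, and leaving out a replicate were the alternatives. The values of 1 list gene are not reported here.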

Additional observations from a re-analysis of the deposited data

How the results depend on the processing

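Of the single-gene values under the alternatives that keep both replicates, 265 kept their direction and side of the threshold, 17 lost the call, 6 gained one and 12 changed sign; of the counts, 104 stayed within 1.5 times and 12 did not. Scaling mattered most. With library totals, H2AK121ub in atbmi1abc gave 2 genes reduced and 3 increased, against 21.1 and 26.0% of all genes. With TMM factors also 3 were increased, against 25.4% of all genes. BBM turned to 0.52 and 0.49 and ANT to 0.52 and 0.49 under these scalings. For H3K27me3 in clfswn, TMM factors left 3 genes reduced and turned PLT7 to 0.076 and ANT to 0.021, and an adjusted p under 0.01 left 0 (edgeR), where 10760 of all genes had an unadjusted p under 0.05. PLT5 in lhp1 turned to -0.027 with totals. PLT7 for H2AK121ub in clfswn turned to 0.13 with totals, 0.11 with TMM factors, 0.48 as its region with most WT reads and 0.17 with the mutant's limits, and PLT2 in atbmi1abc to -0.71 as its region with most WT reads. The cause was not tested. The increased count in lhp1, 1 gene, was 0 with totals, TMM factors, no replicate block, DESeq2, the gene body only or an adjusted p under 0.01. Without the replicate block, the increased count for H2AK121ub in clfswn was 1 in place of 3.

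Over all genes, H2AK121ub in atbmi1abc had 14096 reduced and 91 increased, 4681 and 5778 with totals and 5089 and 5642 with TMM factors, and DESeq2 called 59 increased. In clfswn it had 6659 and 2475, 3938 and 4904 with totals, 4257 and 4519 with TMM factors, 1538 and 234 without the replicate block and 3592 and 815 with DESeq2. In lhp1 it had 185 and 2317, 265 and 670 with totals, 407 and 1613 with TMM factors, 0 and 3 without the replicate block (1744 at an unadjusted p under 0.05) and 28 and 495 with DESeq2. H3K27me3 in atbmi1abc had 5408 and 3008, 4068 and 4469 with totals, 4077 and 4298 with TMM factors and 4151 and 1629 without the replicate block. In clfswn it had 8029 and 1349, 4052 and 4160 with TMM factors, 7703 and 1908 with totals, and 808 increased among genes with a mean of at least 50 reads. Leaving out a replicate gives a value from 1 pair of libraries with no test, and 4 of these values had the other sign, all of genes that were not called. For H2AK121ub in atbmi1abc PLT2 then ran from -0.30 to 0.43, in clfswn PLT7 from -0.080 to 0.035 and ANT from -0.0022 to 0.036, and in lhp1 PLT1 from -0.21 to 0.46; for H3K27me3 in clfswn PLT3 ran from -3.82 to -2.10.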
